A study of Rattus norvegicus with 9 samples.

Results

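The proteasome genes of the rat were taken from the authors' table of expression per gene as the rows with a single gene name that begins with Psma, Psmb, Psmc, Psmd, Psme, Psmf or Psmg and a number, in any case of the letters. Where a name occurred in several rows, the row with the highest mean was kept. The rule found 51 rows and left 49 genes of the 30315 rows of the table. They comprise 13 constitutive subunits of the 20S core, 17 subunits of the 19S cap, 3 catalytic subunits of the immunoproteasome, 2 subunits of the PA28 activator, 7 assembly chaperones, 3 other activators or inhibitors (Psme3, Psme4 and Psmf1) and 2 core subunits of restricted tissues (Psma8 and Psmb11). The rule also caught 2 genes outside these classes: Psma3l, a near copy of the alpha subunit gene Psma3, and Psmc3ip, which is named for an interaction with Psmc3 and is no proteasome subunit. The constitutive catalytic gene Psmb5 is not a member, because its row carries a second identifier. Its values are given only where its immunoproteasome counterpart needs them.

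The proteasome is the protease that degrades proteins marked with ubiquitin in the cytosol and nucleus. Its 20S core is a barrel of alpha rings outside and beta rings inside, in which Psmb5, Psmb6 and Psmb7 carry the proteolytic sites. The 19S cap recognises ubiquitin, unfolds the substrate with a ring of ATPases and feeds it into the core. Under interferon-gamma, cells make Psmb8, Psmb9 and Psmb10, which replace the constitutive catalytic subunits in newly assembled cores, and the PA28 activator, and the resulting immunoproteasome supplies peptides for antigen presentation.

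RNA of the renal outer medulla, the kidney zone rich in thick ascending limbs, was sequenced in 9 individual MCW SS rats, a salt-sensitive strain, with 1 library from each rat and 3 rats per group. HS_DT rats received GapmeRs, antisense oligonucleotides that direct cleavage of their target RNA, against Dnmt3a and Tet3 into the kidney at 2 mg/kg each, and ate a diet with 4% NaCl for 7 days. HS_SCR rats received a scrambled GapmeR into the kidney at 4 mg/kg and the same diet for 7 days. The rats labelled 0.4% salt ate 0.4% NaCl, had the same surgical preparation and gave their tissue at the point where oligonucleotide and high salt would have started. HS_SCR and 0.4% salt thus differ in diet, oligonucleotide and time together, and these cannot be told apart. Values are FPKM, fragments scaled to transcript length and to the mapped fragments of a library, and 1 FPKM was added before taking log2.

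Promoter sequences were matched for 43 of the 49 genes in RefSeq on build GRCr8. A window ran from 250 bases before to 50 bases after the annotated start of transcription. The windows of the 3 immunoproteasome genes and the 2 PA28 genes are shown first, because these are the members known to respond to interferon. The capitals mark the core of the interferon-stimulated response element, GAAA, any 2 bases and GAAA again, read on either strand. Each sequence is printed from base 250 before the start to base 20 after it, in the direction of transcription.
Psmb8 (GRCr8 chr20:4657012-4657281, minus strand): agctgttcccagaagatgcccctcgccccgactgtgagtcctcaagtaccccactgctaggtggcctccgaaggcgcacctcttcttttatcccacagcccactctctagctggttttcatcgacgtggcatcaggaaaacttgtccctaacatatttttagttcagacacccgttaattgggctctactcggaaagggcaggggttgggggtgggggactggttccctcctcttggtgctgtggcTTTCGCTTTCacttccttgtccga
Psmb9 (GRCr8 chr20:4668750-4669019, plus strand): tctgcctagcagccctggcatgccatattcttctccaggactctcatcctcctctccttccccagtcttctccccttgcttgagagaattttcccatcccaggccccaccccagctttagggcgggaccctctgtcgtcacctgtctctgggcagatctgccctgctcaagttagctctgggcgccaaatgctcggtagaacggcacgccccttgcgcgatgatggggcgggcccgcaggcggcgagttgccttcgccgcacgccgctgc
Psmb10 (GRCr8 chr19:50743273-50743542, minus strand): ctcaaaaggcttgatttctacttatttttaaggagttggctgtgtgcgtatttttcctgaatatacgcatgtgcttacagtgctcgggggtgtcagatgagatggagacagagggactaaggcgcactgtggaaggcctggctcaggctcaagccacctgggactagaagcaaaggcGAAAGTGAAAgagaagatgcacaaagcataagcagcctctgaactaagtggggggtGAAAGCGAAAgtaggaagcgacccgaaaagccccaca
Psme1 (GRCr8 chr15:33038721-33038990, plus strand): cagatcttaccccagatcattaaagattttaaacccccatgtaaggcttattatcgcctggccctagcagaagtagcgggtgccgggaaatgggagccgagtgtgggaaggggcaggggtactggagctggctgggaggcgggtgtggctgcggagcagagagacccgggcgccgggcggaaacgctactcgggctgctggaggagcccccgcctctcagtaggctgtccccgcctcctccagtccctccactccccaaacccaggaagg
Psme2 (GRCr8 chr15:33052732-33053001, minus strand): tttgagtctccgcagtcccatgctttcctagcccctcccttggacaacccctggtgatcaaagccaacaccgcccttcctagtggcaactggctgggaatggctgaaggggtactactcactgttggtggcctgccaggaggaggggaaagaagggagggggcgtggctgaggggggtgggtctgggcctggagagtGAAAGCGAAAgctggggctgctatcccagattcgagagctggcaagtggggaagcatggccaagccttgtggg

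This motif was present in 3 of the 5 windows. Counted from the start site, it begins at -4 in Psmb8, at -73 and again at -17 in Psmb10, and at -53 in Psme2. The windows of Psmb9 and Psme1 do not hold these letters. Psmb9 stands head to head with the peptide transporter gene Tap1, and their windows share 44 bases. Of all 33469 rat promoter windows of the same length, 3.92% hold the motif, and of the 26 core and cap windows 3 do (11.5%). The gamma-activated site, TTCNNNGAA, occurred in 1 of the 5 windows (Psmb8) and in 3 of the 26 core and cap windows, against 8.87% of all windows.

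Of the constitutive subunits, the windows of the alpha subunit Psma5, the beta subunit Psmb4 and the cap subunits Psmd4 and Psmd8 are shown, since these genes were among those with the largest changes, Psmd8 with the largest of all. The capitals mark the CCAAT box and the ETS core CCGGAAG, on either strand. The window of Psmd8 holds neither.
Psma5 (GRCr8 chr2:198584255-198584524, plus strand): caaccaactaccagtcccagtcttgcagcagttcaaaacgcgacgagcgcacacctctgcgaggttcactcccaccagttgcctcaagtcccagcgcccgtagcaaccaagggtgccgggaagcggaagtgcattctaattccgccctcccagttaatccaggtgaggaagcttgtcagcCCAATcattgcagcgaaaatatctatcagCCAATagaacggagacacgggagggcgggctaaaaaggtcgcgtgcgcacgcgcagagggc
Psmb4 (GRCr8 chr2:185134542-185134811, minus strand): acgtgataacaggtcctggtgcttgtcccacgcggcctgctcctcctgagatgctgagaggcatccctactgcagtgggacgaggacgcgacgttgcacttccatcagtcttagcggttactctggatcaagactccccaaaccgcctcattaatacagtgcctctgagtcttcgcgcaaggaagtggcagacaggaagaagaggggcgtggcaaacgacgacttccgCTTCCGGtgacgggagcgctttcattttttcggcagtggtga
Psmd4 (GRCr8 chr2:185297182-185297451, minus strand): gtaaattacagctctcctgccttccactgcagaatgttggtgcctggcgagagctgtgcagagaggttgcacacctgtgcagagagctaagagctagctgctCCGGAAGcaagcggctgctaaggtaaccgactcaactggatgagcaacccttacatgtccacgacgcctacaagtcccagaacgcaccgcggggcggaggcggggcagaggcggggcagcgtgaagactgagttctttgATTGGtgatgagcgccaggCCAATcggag
Psmd8 (GRCr8 chr1:93608670-93608939, minus strand): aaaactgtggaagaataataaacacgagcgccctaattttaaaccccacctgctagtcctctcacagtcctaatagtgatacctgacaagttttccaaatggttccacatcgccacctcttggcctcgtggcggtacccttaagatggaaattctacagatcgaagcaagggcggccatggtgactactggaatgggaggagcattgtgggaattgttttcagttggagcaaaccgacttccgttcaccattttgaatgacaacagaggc

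Among the 26 core and cap windows, 10 held the ETS core (38.5%), against 8.75% of all windows, and none of the 5 immunoproteasome and PA28 windows did. The GC box GGGCGG was present in 19 of the 26 (73.1%), against 33.1% of all windows, and the CCAAT box in 14 (53.8%), against 37.5%. The core of the antioxidant response element, TGACNNNGC, was found in 5 (19.2%), against 12.1%. Both strands were searched, motifs were counted separately where they overlap, and a match describes the letters only.

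Depth is unknown from FPKM. A relative depth read from the lowest values ran from 0.762 to 1.38 over the 9 libraries. On principal component 2, with 22.1% of the variance, HS_SCR replicate 3 lay at -51.5, and the other 8 libraries lay at -2.34 to 24.0. The rat numbers fall into a lower and a higher series that the labels do not explain. Replicate 3 of HS_DT, replicate 3 of HS_SCR and all 3 rats of 0.4% salt belong to the higher series. Neither targeted transcript had a lower mean in the libraries labelled HS_DT than in HS_SCR. Dnmt3a was at 8.72, 10.3 and 11.02 FPKM in HS_DT and at 7.05, 5.75 and 10.3 in HS_SCR (0.4% salt 13.4, 12.2 and 12.9). Tet3 was at 7.62, 8.54 and 7.92 FPKM in HS_DT and at 5.04, 5.47 and 8.20 in HS_SCR (0.4% salt 9.38, 8.47 and 9.64). Their log2 differences between HS_DT and HS_SCR were 0.37 ± 0.18 (SE) and 0.34 ± 0.15 (limma adjusted p = 0.303 and 0.271). Thick ascending limb markers, of which all 10 were measured, had a sum of at least 1232 FPKM in every library. Their presence was not a test of the zone sampled. Proximal tubule markers had the higher sum in 0.4% salt replicates 2 (6034 against 4323 FPKM) and 3 (3097 against 2816). They also did so in HS_DT replicate 3 (4105 against 2494), and had the lower sum in the other libraries.

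Proteasome transcripts were abundant and varied little. Of the 49 genes, 47 averaged 1 FPKM or more across the libraries and were tested. Psma8 (0 to 0.0385 FPKM) and Psmb11 (0.0354 to 0.233 FPKM) were not. The median residual SD within groups was 0.10 on the log2 scale over the 47 genes, against 0.18 over all 14338 loci tested. The sets were not matched for level: the median log2 level was 5.81 over the 47 genes and 3.55 over all loci. Per transcript length, Psme1 was the highest member, with means of 278.9 FPKM in HS_DT, 297.1 in HS_SCR and 235.6 in 0.4% salt. Within the 20S core the levels ran from Psma2 (means of 30.6 FPKM in HS_DT, 36.8 in HS_SCR and 29.3 in 0.4% salt) to Psma7 (172.3, 197.9 and 164.1 FPKM in the same groups). The median subunit of the core stood at 96.3, 110.4 and 90.2 FPKM in HS_DT, HS_SCR and 0.4% salt. The median subunit of the cap stood lower, at 53.9, 64.4 and 52.7 FPKM, and the cap ran from Psmd11 to Psmc3 in each group.

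**Figure D1:**
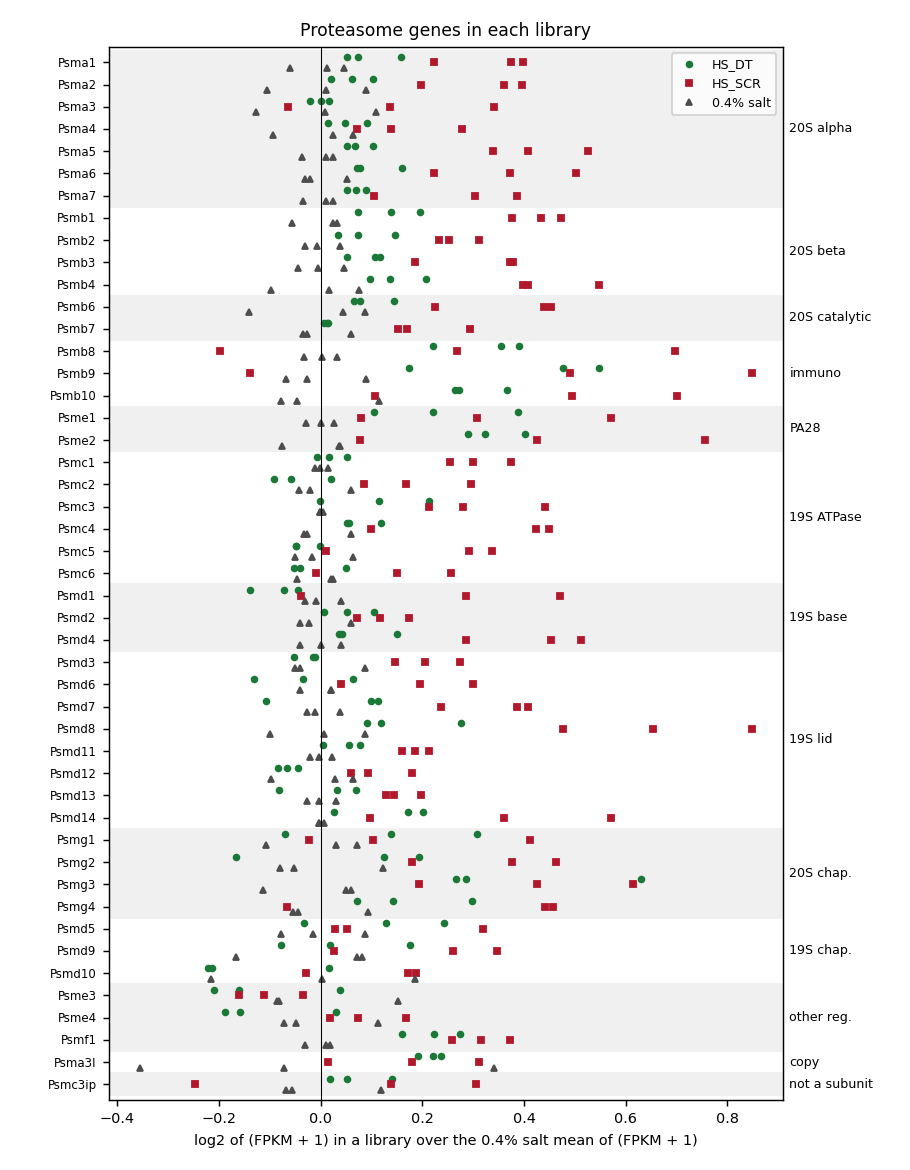
Each point is 1 library: log2 of FPKM + 1 relative to the 0.4% salt mean (x axis) for the 47 tested genes by class (y axis; chap., assembly chaperone; reg., activator or inhibitor). The HS_SCR points of the 20S and 19S subunits lie to the right of the HS_DT and 0.4% salt points for most genes, and the HS_SCR points of Psmb8 and Psmb9 span both sides of the 0.4% salt points.

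In HS_SCR compared with 0.4% salt, most genes of the 20S core and fewer of the 19S cap were called higher. Of the 47 genes, 15 were called higher and 0 lower at an adjusted p under 0.05 (limma, Benjamini-Hochberg over all loci), while 8.2% of all tested loci were called higher and 4.88% lower. The calls comprised 9 of the 13 core subunits, 5 of the 17 cap subunits and the inhibitor Psmf1. None of the 3 immunoproteasome genes, the 2 PA28 genes or the 7 assembly chaperones was called. The group mean was higher in HS_SCR for 46 of 47 genes, all but Psme3, against 54.0% of all loci. At an unadjusted p under 0.05 there were 27 of 47 genes, against 32.0% of all loci. The median log2 change was 0.27 over the 47 genes, with a range of -0.10 to 0.66, and 0.02 over all loci. Here fewer cells of a type and less RNA per cell cannot be told apart, since the RNA is that of whole tissue. The fold of low genes is understated on this scale.

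Among the alpha subunits, which form the outer rings and the gate of the core, 4 of 7 were called. Psma5 had 72.8, 70.2 and 70.9 FPKM in HS_DT, 97.9, 85.9 and 90.1 in HS_SCR, and 68.2, 66.0 and 68.8 in 0.4% salt. All HS_SCR rats were above all other rats. Its log2 change in HS_SCR against 0.4% salt was 0.42 ± 0.07 (SE; limma adjusted p = 0.0112). Psma6 had 119.1, 112.4 and 111.9 FPKM in HS_DT, 151.3, 138.1 and 124.5 in HS_SCR, and 110.4, 104.9 and 104.2 in 0.4% salt, with the 3 groups apart from one another. It rose in HS_SCR by 0.37 ± 0.09 (limma adjusted p = 0.0290). Psma1 was at 100.7, 94.9 and 93.6 FPKM in HS_DT, 119.2, 105.4 and 117.3 in HS_SCR, and 93.1, 86.4 and 91.0 in 0.4% salt, again without overlap, and its rise was 0.33 ± 0.08 (limma adjusted p = 0.0282). Psma2 was the fourth called, at 0.32. Psma3, Psma4 and Psma7 did not pass, with changes of 0.14, 0.16 and 0.26.

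All 4 non-catalytic beta subunits were called. Psmb1 had 157.2, 144.5 and 151.2 FPKM in HS_DT, 190.8, 178.4 and 185.6 in HS_SCR, and 140.3, 131.9 and 139.5 in 0.4% salt. The 3 groups did not overlap, and HS_DT lay between the others. The log2 change in HS_SCR was 0.43 ± 0.07 (limma adjusted p = 0.0104). Psmb4 had 142.6, 135.8 and 132.1 FPKM in HS_DT, 180.9, 162.9 and 164.0 in HS_SCR, and 130.1, 124.8 and 115.3 in 0.4% salt, in the same order of groups. Its change in HS_SCR was 0.45 ± 0.08 (limma adjusted p = 0.0127), the largest among the core subunits. Psmb3 was at 72.6, 69.9 and 73.1 FPKM in HS_DT, 88.0, 87.5 and 76.8 in HS_SCR, and 67.2, 65.4 and 69.6 in 0.4% salt, with no overlap, and rose by 0.31 ± 0.08 (limma adjusted p = 0.0338). Psmb2 rose by 0.27.

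Of the constitutive catalytic subunits, Psmb6, which cleaves after acidic residues, had 73.7, 69.7 and 70.3 FPKM in HS_DT, 91.4, 90.6 and 77.9 in HS_SCR, and 70.7, 68.7 and 60.2 in 0.4% salt. Every HS_SCR rat was above every other rat, and HS_DT overlapped with 0.4% salt. Psmb6 rose in HS_SCR by 0.38 ± 0.09 (limma adjusted p = 0.0347). Psmb7, which cleaves after basic residues, had 96.5, 96.01 and 96.4 FPKM in HS_DT, 117.4, 106.3 and 107.6 in HS_SCR, and 93.3, 99.6 and 93.8 in 0.4% salt. Every HS_SCR rat was again above every other rat, but the change of 0.21 ± 0.07 in HS_SCR did not pass (limma adjusted p = 0.0842). The row that holds Psmb5, which cleaves after hydrophobic residues, had 118.4, 105.3 and 99.6 FPKM in HS_DT, 129.4, 135.2 and 102.1 in HS_SCR, and 104.1, 99.97 and 97.2 in 0.4% salt. HS_SCR overlapped with HS_DT and with 0.4% salt there, and its change of 0.27 ± 0.12 against 0.4% salt did not pass (limma adjusted p = 0.151).

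In the 19S cap the largest change was that of Psmd8, a subunit of the lid. Psmd8 had 66.5, 65.3 and 74.4 FPKM in HS_DT, 96.9, 111.0 and 85.6 in HS_SCR, and 57.1, 65.1 and 61.5 in 0.4% salt. All 3 groups were apart, and Psmd8 rose in HS_SCR by 0.66 ± 0.11 on the log2 scale (limma adjusted p = 0.0102), or 1.58-fold. Psmd4, the ubiquitin receptor of the base, had 58.7, 54.3 and 54.1 FPKM in HS_DT, 75.6, 72.5 and 64.5 in HS_SCR, and 51.2, 52.8 and 54.2 in 0.4% salt. HS_DT and 0.4% salt overlapped slightly, while every HS_SCR rat was above both. The rise in HS_SCR was 0.42 ± 0.08 (limma adjusted p = 0.0163). Psmd7, which pairs with the deubiquitinase Psmd14 in the lid, had 52.2, 51.6 and 44.6 FPKM in HS_DT, 63.2, 64.2 and 56.9 in HS_SCR, and 49.5, 47.8 and 47.2 in 0.4% salt, with HS_SCR above both other groups, and rose by 0.34 ± 0.09 (limma adjusted p = 0.0364). Psmd14 itself stood at 0.34 ± 0.12 and did not pass (limma adjusted p = 0.0862).

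Of the 6 ATPases that unfold substrates at the base of the cap, Psmc1 and Psmc3 were called. Psmc1 had 64.6, 63.6 and 66.3 FPKM in HS_DT, 83.2, 78.9 and 76.4 in HS_SCR, and 63.8, 64.5 and 63.4 in 0.4% salt. HS_DT and 0.4% salt overlapped, and every HS_SCR rat was above both. Psmc1 rose by 0.31 ± 0.07 (limma adjusted p = 0.0209); a row for Nrde2 overlaps its locus in the table. Psmc3 had 107.4, 100.2 and 92.4 FPKM in HS_DT, 126.0, 112.6 and 107.4 in HS_SCR, and 92.8, 92.4 and 92.4 in 0.4% salt, and rose by 0.31 ± 0.09 (limma adjusted p = 0.0486). HS_SCR was above both other groups there, narrowly so above HS_DT. The remaining 12 cap subunits had changes of 0.11 to 0.34 that did not pass. The ranges of HS_SCR and 0.4% salt were apart in 25 of the 30 core and cap subunits, HS_SCR above, and in 30 of all 47 genes, against 19.1% of all loci.

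**Figure D2:**
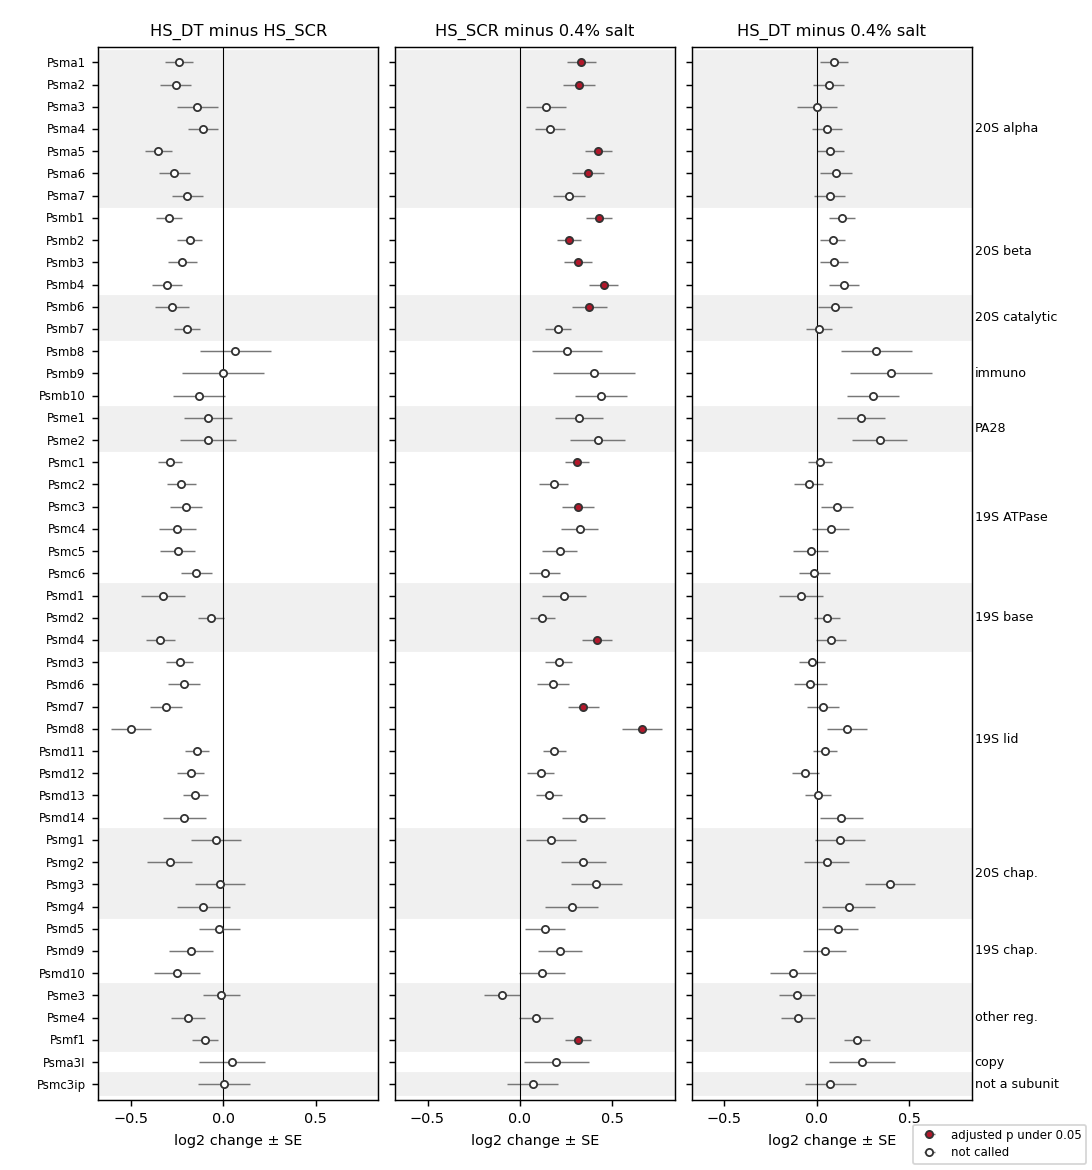
Log2 change with its SE (x axis) for each of the 47 tested genes (y axis, by class) in the 3 comparisons, with filled points for an adjusted p under 0.05. In HS_SCR minus 0.4% salt 15 points are filled; in HS_DT minus HS_SCR the core and cap points all lie left of 0 with none filled, and in HS_DT minus 0.4% salt they lie near 0 while the immunoproteasome and PA28 points lie right of it.

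Among the regulators, Psmf1, an inhibitor that binds the core, had 25.1, 23.9 and 26.0 FPKM in HS_DT, 27.9, 25.7 and 26.8 in HS_SCR, and 21.5, 20.9 and 21.6 in 0.4% salt. Both high-salt groups were above 0.4% salt and overlapped with each other. Psmf1 rose in HS_SCR by 0.32 ± 0.07 (limma adjusted p = 0.0248). Its change in HS_DT against 0.4% salt was 0.22 ± 0.07 (limma adjusted p = 0.482). Psme3, the nuclear activator PA28 gamma, stood at -0.10 ± 0.10 in HS_SCR and Psme4, a further activator that caps the core, at 0.09 ± 0.09. The chaperones that assemble the core (Psmg1 to Psmg4) and the cap (Psmd5, Psmd9 and Psmd10) had a median change of 0.22 in HS_SCR and a range of 0.12 to 0.41. Psmg3 was the highest of them, with 27.6, 21.2 and 21.5 FPKM in HS_DT, 27.3, 23.8 and 20.1 in HS_SCR, and 18.1, 18.2 and 16.1 in 0.4% salt. Both high-salt groups were above 0.4% salt, at 0.40 ± 0.14 in HS_DT (limma adjusted p = 0.529) and 0.41 ± 0.14 in HS_SCR (limma adjusted p = 0.0792). Psma3l, at 1.10 to 2.40 FPKM, and Psmc3ip, at 8.79 to 13.4 FPKM, overlapped in all comparisons; reads of Psma3l may be shared with Psma3.

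These counts depended on single libraries. Without HS_SCR replicate 3, the library that stands apart, 33 genes were called higher in HS_SCR, among them all 15: 11 of 13 core subunits, 13 of 17 cap subunits, all 3 immunoproteasome genes, both PA28 genes, 3 of 7 chaperones and Psmf1. In that fit 20.5% of all loci were called higher. HS_SCR then holds rats of the lower number series only and 0.4% salt those of the higher series only, so series and group cannot be told apart. Without 0.4% salt replicate 2, 1 gene remained called, against 1.8% of all loci. Without any other library the count lay between 4 and 10, against 2.29% to 6.93% of all loci. With the number series in the model 7 genes were called (3 core, 3 cap and Psmf1), against 5.88% of all loci. The median change was then 0.26 over the core, 0.17 over the cap and 0.02 over the 3 immunoproteasome genes. Within the higher series, where each high-salt group has 1 rat, the summed core was 1273 FPKM in HS_DT, 1440 in HS_SCR, and 1184 to 1247 in the 3 rats of 0.4% salt.

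Between HS_DT and HS_SCR no proteasome gene was called, and every core and cap subunit had a lower mean in HS_DT. Of the 47 genes, 0 passed an adjusted p under 0.05 (limma) in either direction, and 1 of all 14338 loci did (0.00697% called lower, 0.0% higher). At an unadjusted p under 0.05 there were 24 of 47, against 19.1% of all loci. The mean was lower in HS_DT in all 30 core and cap subunits and in 45 of 47 genes, against 52.4% of all loci. It was higher in 2 (47.6% of all loci). The ranges were apart, HS_DT below, in 23 of 47 genes, all of them core or cap subunits, against 12.5% of all loci. HS_DT was above without overlap in 0 of 47 (9.1% of all loci). The median log2 change was -0.24 over the core, -0.23 over the cap, -0.08 over PA28 and -0.00 over the immunoproteasome genes, and -0.00 over all loci. With HS_SCR replicate 3 left out, HS_SCR holds rats of the lower number series only, while HS_DT still holds a rat of the higher series. In that fit, where series and group are partly mixed, the class medians lay closer together. They were then -0.28 over the core, -0.28 over the cap, -0.23 over PA28 and -0.27 over the immunoproteasome genes. With all libraries kept but weighted, they were -0.29, -0.26, -0.16 and -0.10 in that order. With the number series in the model they were -0.24, -0.23, -0.08 and -0.00, as without it. HS_DT and HS_SCR hold the same number of rats of each series, so this model cannot move these medians. The genes are measured in the same 9 libraries and are not independent of each other.

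The smallest p-values in this comparison belonged to genes already shown above. Psma5 was at -0.35 ± 0.07 (limma adjusted p = 0.0692) and Psmd8 at -0.50 ± 0.11 (limma adjusted p = 0.0788), with a 95% interval of -0.75 to -0.25. Psmc1 was at -0.29 ± 0.07 (limma adjusted p = 0.0797), Psmd4 at -0.34 ± 0.08 (limma adjusted p = 0.0887) and Psmb1 at -0.29 ± 0.07 (limma adjusted p = 0.0922). In each of these 5 genes the 3 HS_DT rats were below the 3 HS_SCR rats. Among the catalytic subunits Psmb6 was at -0.28 ± 0.09 and Psmb7 at -0.19 ± 0.07, and the Psmb5 row at -0.17. Of the chaperones, Psmg2 had 12.97, 13.7 and 10.4 FPKM in HS_DT, 16.7, 15.6 and 13.5 in HS_SCR, and 11.1, 11.4 and 12.96 in 0.4% salt, and Psmd10, also known as gankyrin, had 13.1, 13.1 and 15.6 FPKM in HS_DT, 17.7, 17.5 and 15.1 in HS_SCR, and 17.6, 13.1 and 15.4 in 0.4% salt. The HS_DT and HS_SCR ranges overlapped in both, with changes of -0.29 ± 0.12 and -0.25 ± 0.12. Psme4 was at -0.19 ± 0.09 (limma adjusted p = 0.3003).

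Without HS_SCR replicate 3, 18 genes were called lower in HS_DT: 8 core and 10 cap subunits, with 9.29% of all loci called lower in that fit. As said above, series and group are partly mixed in it, and the part of the series was not tested. None of the immunoproteasome and PA28 genes was called there, although their median changes, given above, were close in size to those of the core and cap. No call arose in this comparison without any other library. With the number series in the model, 3 genes were called lower (1 core and 2 cap subunits), against 2.06% of all loci.

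Against 0.4% salt, HS_DT differed little in the core and cap and stood higher in the immunoproteasome and PA28 genes, with no call. Of the 47 genes 0 were called (limma; 0.0% of all loci in either direction), and 2 had an unadjusted p under 0.05, Psmf1 and Psmg3, against 7.49% of all loci. The median change was 0.09 over the core, 0.02 over the cap, 0.32 over the 3 immunoproteasome genes and 0.29 over PA28. The ranges were apart, HS_DT above, in 16 of 47 genes, against 14.2% of all loci. These comprised all 5 immunoproteasome and PA28 genes and 9 of 30 core and cap subunits. They were apart with HS_DT below in 1 gene, the cap scaffold Psmd1, against 9.64% of all loci. The HS_DT mean was lower in 11 of 47 genes, against 48.3% of all loci. Each pair of the 3 comparisons shares a group, so these sets of changes are not independent. The HS_DT mean lay between the means of HS_SCR and 0.4% salt in 34 of 47 genes, against 57.8% of all loci.

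**Figure D3:**
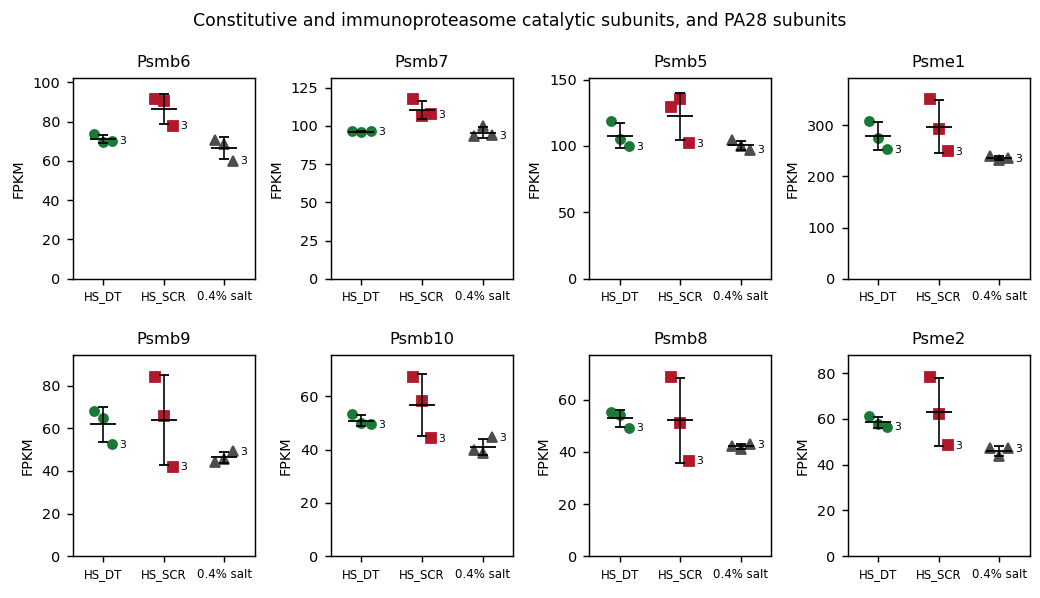
FPKM of each rat (y axis) in the 3 groups (x axis), with the mean and SD (n = 3) as bars and replicate 3 marked, for the constitutive catalytic subunits Psmb6, Psmb7 and Psmb5 (top), their immunoproteasome counterparts Psmb9, Psmb10 and Psmb8 (below each) and the PA28 subunits. Replicate 3 of HS_SCR lies lowest of its group in all panels but Psmb7, and below the highest 0.4% salt rat in Psmb5, Psmb8, Psmb9 and Psmb10.

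The immunoproteasome genes spread widely among the HS_SCR rats. Psmb9 (chromosome 20, 6052971 to 6058393 on rn5), the counterpart of Psmb6, had 68.2, 64.9 and 52.4 FPKM in HS_DT, 84.3, 65.6 and 42.04 in HS_SCR, and 44.2, 45.5 and 49.4 in 0.4% salt. All HS_DT rats were above 0.4% salt, and HS_SCR reached from the lowest to the highest value of the 9 rats. Its changes were -0.00 ± 0.22 in HS_DT against HS_SCR, 0.40 ± 0.22 in HS_SCR against 0.4% salt and 0.40 ± 0.22 in HS_DT against 0.4% salt (limma adjusted p = 1.0, 0.247 and 0.751). Psmb8 (chromosome 20, 6058473 to 6089133), the counterpart of Psmb5, had 55.5, 54.1 and 49.2 FPKM in HS_DT, 68.9, 50.9 and 36.6 in HS_SCR, and 42.2, 41.1 and 43.0 in 0.4% salt. Again HS_DT was above 0.4% salt and HS_SCR spanned all values. The changes in the same order were 0.07 ± 0.19, 0.26 ± 0.19 and 0.32 ± 0.19 (limma adjusted p = 0.875, 0.383 and 0.754). A row named for Tap1 and Tap2, both subunits of the peptide transporter, covers the same locus, so reads may be split between these genes.

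Psmb10 (chromosome 19, 48776576 to 48779068), the counterpart of Psmb7, had 53.2, 49.8 and 49.5 FPKM in HS_DT, 67.3, 58.2 and 44.3 in HS_SCR, and 39.7, 38.8 and 44.5 in 0.4% salt. HS_DT was above 0.4% salt, and HS_SCR replicate 3 fell among the 0.4% salt rats. The change was -0.13 ± 0.14 in HS_DT against HS_SCR, 0.44 ± 0.14 in HS_SCR against 0.4% salt and 0.30 ± 0.14 in HS_DT against 0.4% salt (limma adjusted p = 0.634, 0.0732 and 0.684). The 95% interval of the difference between HS_DT and HS_SCR was -0.45 to 0.19 for Psmb10, -0.51 to 0.51 for Psmb9 and -0.37 to 0.50 for Psmb8, so that changes of the size seen in the core lie within all 3.

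The PA28 genes lie next to each other on chromosome 15 of rn5 (Psme1 at 38145905 to 38153351, Psme2 at 38155744 to 38160141). Psme1, its alpha subunit, had 308.5, 274.9 and 253.3 FPKM in HS_DT, 350.4, 291.9 and 248.9 in HS_SCR, and 240.1, 231.0 and 235.6 in 0.4% salt. Psme2, its beta subunit, had 61.2, 57.9 and 56.5 FPKM in HS_DT, 78.4, 62.2 and 48.6 in HS_SCR, and 47.3, 43.6 and 47.2 in 0.4% salt. In both genes all high-salt rats were above all rats of 0.4% salt, and HS_DT overlapped with HS_SCR. None of their changes passed: in HS_SCR against 0.4% salt they were 0.32 ± 0.13 for Psme1 and 0.42 ± 0.15 for Psme2 (limma adjusted p = 0.128 and 0.0967), and in HS_DT against 0.4% salt 0.24 ± 0.13 and 0.34 ± 0.15 (limma adjusted p = 0.741 and 0.665). Against HS_SCR, HS_DT stood at -0.08 in both.

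Values of these 5 genes moved with the rat number series. In the 3 immunoproteasome genes together, the sum in the lower series was 176.9 and 168.8 FPKM in HS_DT and 220.5 and 174.7 FPKM in HS_SCR. In the higher series it was 151.2 FPKM in HS_DT, 122.9 in HS_SCR and 125.5 to 137.0 in 0.4% salt. With the series as a factor the median change of the 3 genes against 0.4% salt was 0.04 in HS_DT and 0.02 in HS_SCR, against 0.32 and 0.40 without it. The PA28 sum was 369.7 and 332.7 FPKM in HS_DT and 428.8 and 354.1 in HS_SCR in the lower series. In the higher series it was 309.9 FPKM in HS_DT, 297.5 in HS_SCR and 274.7 to 287.3 in 0.4% salt, so that the PA28 sum of both high-salt rats stayed above those of 0.4% salt there. The part of the series in these values was not tested. For the 30 core and cap subunits the higher series alone gave the same order of the sums as all rats, at 2190 FPKM in HS_DT, 2452 in HS_SCR and 2080 to 2148 in 0.4% salt. In the lower series the sum of these 30 was 2777 and 2635 FPKM in HS_SCR and 2260 and 2186 in HS_DT.

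The exchange of catalytic subunits can be expressed as a ratio within each rat. Psmb9 to Psmb6 was 0.926, 0.932 and 0.746 in HS_DT, 0.922, 0.724 and 0.540 in HS_SCR, and 0.625, 0.663 and 0.821 in 0.4% salt. The groups overlapped in all pairs. Psmb10 to Psmb7 was 0.551, 0.519 and 0.513 in HS_DT, 0.574, 0.548 and 0.412 in HS_SCR, and 0.426, 0.390 and 0.475 in 0.4% salt. Psmb8 to Psmb5 was 0.469, 0.514 and 0.494 in HS_DT, 0.532, 0.377 and 0.358 in HS_SCR, and 0.405, 0.411 and 0.443 in 0.4% salt. For these 2 ratios HS_DT was above 0.4% salt without overlap, and HS_SCR overlapped with both. The log2 ratio in HS_DT exceeded that in 0.4% salt by 0.31 for Psmb9 to Psmb6, 0.30 for Psmb10 to Psmb7 and 0.23 for Psmb8 to Psmb5, with exact two-sided permutation p of 0.2, 0.1 and 0.1. Against HS_SCR, HS_DT differed by 0.28, 0.06 and 0.24 (exact permutation p = 0.2, 0.9 and 0.4), and HS_SCR differed from 0.4% salt by 0.03, 0.24 and -0.01 (exact permutation p = 1.0, 0.3 and 1.0). None of these 9 tests can go below 0.1 with 3 rats a group, so none can pass 0.05 and adjusted values would all be above it.

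**Figure D4:**
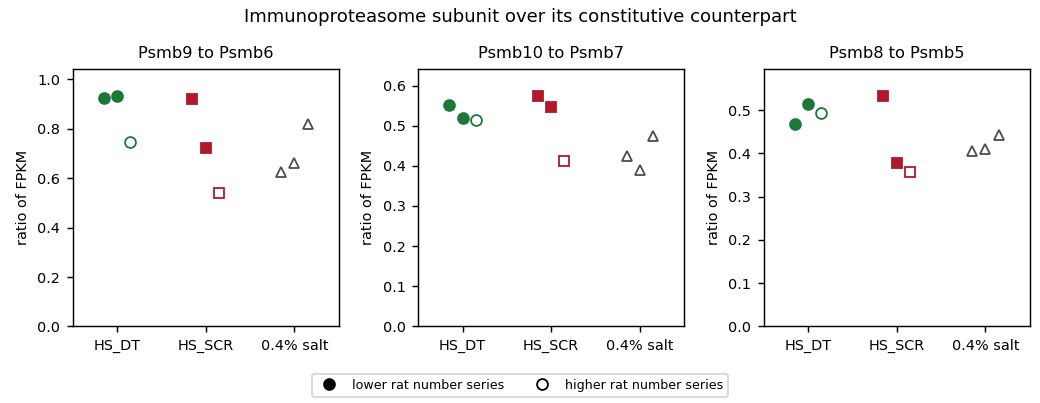
Ratio of FPKM of an immunoproteasome subunit to its constitutive counterpart in each rat (y axis) by group (x axis), filled for the lower and open for the higher rat number series. HS_DT rats lie above all rats of 0.4% salt for Psmb10 to Psmb7 and Psmb8 to Psmb5, and the open HS_SCR point is the lowest of its group in each panel.

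Genes that work with the proteasome gave a few calls, where 8.2% of all loci were called higher in HS_SCR. Of 19 tested partners (receptors, deubiquitinases and transcription factors of proteasome genes), 2 were called higher in HS_SCR against 0.4% salt: Shfm1, a small cap subunit, by 0.46 ± 0.10 (limma adjusted p = 0.0245) and Adrm1, a ubiquitin receptor of the cap, by 0.33 ± 0.09 (limma adjusted p = 0.0437). Both are subunits whose names escape the naming rule. Of 13 tested genes of ubiquitin and of the unfoldase p97, 3 were called higher in the same comparison, among them Rps27a, which encodes ubiquitin fused to a ribosomal protein, by 0.69 and the p97 cofactor Nsfl1c by 0.39 (limma adjusted p = 0.00754 and 0.0108). In HS_DT against HS_SCR no gene of these lists was called, with Shfm1 at -0.40 ± 0.10, Adrm1 at -0.32 ± 0.09, Nsfl1c at -0.35 ± 0.06 and Rps27a at -0.48 ± 0.10 (limma adjusted p from 0.0644 to 0.117). None was called in HS_DT against 0.4% salt.

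Of 15 tested genes of interferon response and antigen processing, 2 were called in HS_SCR against 0.4% salt, the receptor chains Ifngr1 (0.91) and Ifngr2 (0.60), both higher (limma adjusted p = 0.00741 and 0.00778). The median change of the list was -0.08. Its summed level was 2395 to 2498 FPKM in HS_DT, 2019 to 3168 in HS_SCR and 2033 to 2252 in 0.4% salt, with HS_SCR replicate 3 lowest, as for the immunoproteasome genes. Irf1, an activator of immunoproteasome genes, had 49.6, 44.2 and 37.2 FPKM in HS_DT, 41.6, 35.6 and 39.8 in HS_SCR, and 30.2, 32.1 and 31.9 in 0.4% salt. Both high-salt groups were above 0.4% salt, by 0.45 ± 0.11 in HS_DT (limma adjusted p = 0.371).

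**Figure D5:**
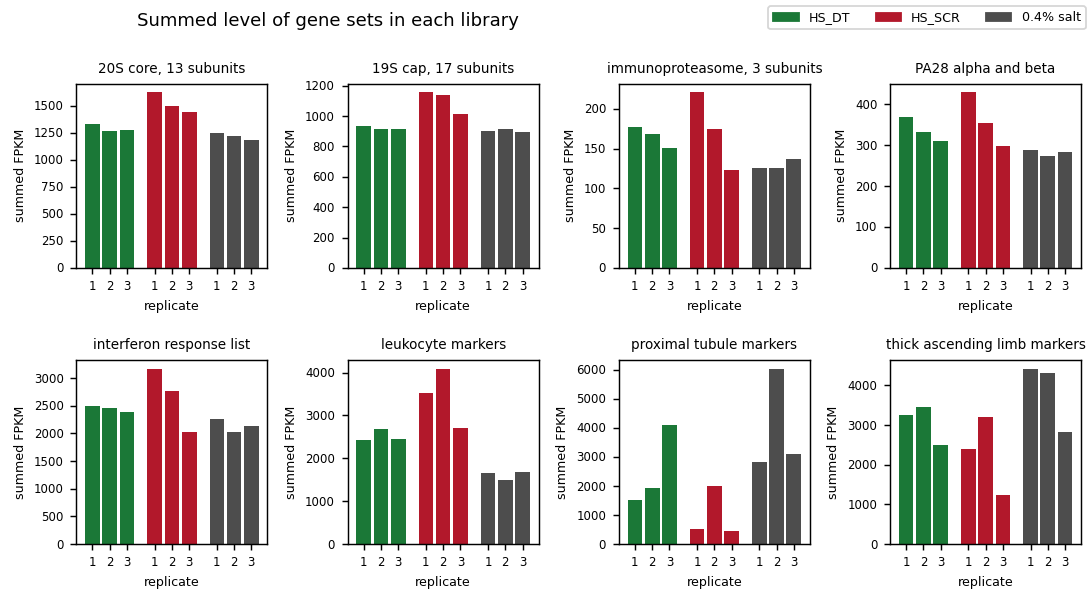
Summed FPKM (y axis) in each of the 9 rats (x axis, replicate number within group) for 4 sets of proteasome genes (top) and 4 lists of other genes (bottom). The 20S and 19S sums are highest in HS_SCR, leukocyte markers reach 4087 FPKM in HS_SCR and have their minimum of 1490 in 0.4% salt, and proximal tubule markers have their minimum of 438 in HS_SCR and reach 6034 in 0.4% salt.

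Cell markers moved in the same comparison as the core and cap. Of 17 tested leukocyte markers, 9 were called higher and 0 lower in HS_SCR against 0.4% salt, with S100a9 at 4.50, S100a8 at 4.15, C1qb at 1.63 and C1qc at 1.52. Their sum was 2435 to 2681 FPKM in HS_DT, 2698 to 4087 in HS_SCR and 1490 to 1693 in 0.4% salt, and CD79A was at 0 in all libraries. Of 12 tested proximal tubule markers, 5 were called lower, with Miox at -4.43 and Slc34a1 at -3.85, and the sum was 1508 to 4105 FPKM in HS_DT, 438 to 1999 in HS_SCR and 2823 to 6034 in 0.4% salt. Of 10 thick ascending limb markers, 4 were called lower, with Egf at -2.36 and Tmem207 at -1.99, and the sum was 2494 to 3453 FPKM in HS_DT, 1232 to 3192 in HS_SCR and 2816 to 4420 in 0.4% salt. All 4 tested erythroid markers were called higher, with a sum of 1833 to 2517 FPKM in HS_DT, 1339 to 8718 in HS_SCR and 496 to 769 in 0.4% salt. Of 10 collecting duct markers 0 were called, with a sum of 876 to 1453 FPKM in HS_DT, 1279 to 1709.7 in HS_SCR and 788 to 1399.7 in 0.4% salt. In the last 4 lists no measured marker was at 0 throughout. None of the markers was called in the other 2 comparisons. With the proximal tubule score of each library as a covariate no locus of the table was called in HS_SCR against 0.4% salt, and the median change of the 47 proteasome genes was 0.21. The part of these cell types in the proteasome values was not tested.

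Changes also followed the width of the locus. In HS_SCR against 0.4% salt the median change was 0.15 in the narrowest of 4 equal classes of loci (median width 4297 bases) and -0.10 in the widest (137462 bases). Proteasome loci had a median width of 11943 bases. After removal of this trend in each library, 8 of the 47 proteasome genes were called higher, against 6.39% of all loci. The median change of the 47 was then 0.21. After quantile normalization 4 of 47 were called, against 6.35% of all loci, with a median of 0.15 over the 47.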

How the data were processed

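The authors' deposited table gives FPKM at 30315 loci for 9 libraries of total RNA, prepared on an Illumina NeoPrep system per the labels' protocols. Per the submitters' processing notes, Trim Galore 0.2.5, Cufflinks 2.2.1 and build rn5 were used. Details of the aligner, the annotation and any scaling were not given in the sources used here. FPKM hold no counts, so no counting interval or floor is given, and normalization to the sum lets abundant transcripts shift all others. FPKM summed over the table were not equal among libraries. They were 862686, 933862 and 716282 in HS_SCR replicates 1, 2 and 3. In HS_DT they ran from 722523 to 756307, and in 0.4% salt from 685349 to 769439. Columns were matched by the rat number in the title, and 1 further column of sample values was not used. Where nothing else is said, log2(FPKM + 1) of the 14338 loci that averaged 1 FPKM or more was fitted with limma 3.58.1 (R 4.3.3, limma-trend, 6 residual degrees of freedom, 8.54 after moderation) for the 3 groups together, two-sided, with Benjamini-Hochberg adjustment over all loci and calls under 0.05. The script was tested on simulated data. Ratios within a rat were tested by exact permutation. Replicate numbers do not pair rats in the labels.

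The members and gene lists were chosen with earlier results of these data known. Values in every library are given for the catalytic and PA28 genes and, in each class and comparison, for up to 3 called members by size of change or the 1 with the smallest p; Psma2 and Psmb2 and a few further values were added after they were seen. Of each other list, up to 4 called genes with the largest change or the 2 with the smallest p are named, apart from genes not reported here. Alternatives were pseudocounts of 0.1 and 0.5, no filter and a mean of at least 5 FPKM, median-ratio and quantile scaling, library weights, 2 groups only, the replicate block, the rat number series and each library left out. Removal of the locus-width trend (lowess, span 0.3) and the proximal tubule score, the mean log2 level of its markers, as a covariate were added after seeing the data. Promoters are RefSeq windows on GRCr8, with no coordinates carried over to rn5.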

Additional observations from a re-analysis of the deposited data

How the results depend on the processing

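The count of proteasome genes called higher in HS_SCR against 0.4% salt was 15 in the report, with 8.2% of all loci called higher. It was 12 with no filter (2.27% of all loci) and 14 with median-ratio scaling (6.92%). It was 15 with either other pseudocount (8.21%) or a mean of at least 5 FPKM (11.2%). It was 4 with quantile normalization, 30 with library weights, 2 in the fit of the 2 groups only, 7 with the rat number series in the model, 8 with the locus-width trend removed and 0 with the proximal tubule score in the model. Leaving out 1 library gave 1 (1.8% of all loci) to 33 (20.5%). Between HS_DT and HS_SCR the count of 0 became 1 with no filter (0.208% of all loci called lower) and 16 with library weights (6.1%). It became 3 with the rat number series (2.06%) and 0 to 18 with 1 library left out (9.29% for the 18). All these calls were lower in HS_DT. Between HS_DT and 0.4% salt the count of 0 became 5 with library weights, all higher in HS_DT (8.22% of all loci). The 5 were Psmb8, Psmb9, Psmb10, 1 PA28 gene and 1 other regulator. With 1 library left out the count stayed at 0. The cause of these moves was not tested.

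No direction reversed among the 13 called genes described by value, over 21 alternatives each. These genes were chosen because they were called in the same data. In several alternatives their log2 change cannot move, so no reversal was possible there. Among these are the fit of the 2 groups only, the replicate block and the fits without an HS_DT library. Psmd8 was still called in 20 of 21, Psmb1 in 18, Psma5 and Psmb4 in 17, Psmd4 in 16 and Psmf1 in 15. Psmc1 was still called in 14, Psma1 and Psma6 in 11, Psmd7 in 8, Psmb3 and Psmb6 in 7 and Psmc3 in 6. Of all 273 gene results in these alternatives, 106 were no longer called.

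With the replicate block the counts were 0 for HS_DT against HS_SCR and 0 for HS_DT against 0.4% salt (0.0% of all loci in both). For HS_SCR against 0.4% salt 15 genes were called higher, against 7.92% of all loci. The block changed no count, but the genes called were not all the same. Psmb3 no longer passed with it (limma adjusted p = 0.0530). Residuals correlated above 0.1 in 5 of 9 pairs of same-numbered libraries (-0.08 to 0.26). Among pairs with different numbers, 2 of 18 did so (-0.31 to 0.24). The numbers were not taken as pairs because the labels do not pair rats, and a shared origin of same-numbered libraries was not tested. Unknown depth, 3 rats a group and 1 library that stands apart limit these results.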
